A study of Mus musculus with 12 samples.

Results

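The nuclear oxidative phosphorylation genes described here were the 80 genes of 23253 in the deposited table whose symbols matched 1 pattern for the subunits of the respiratory chain and ATP synthase. By symbol, 36 belonged to complex I (Nduf), 4 to complex II (Sdh), 8 to complex III (Uqcr), 15 to complex IV (Cox) and 17 to complex V, the ATP synthase (Atp5). The pattern itself uses no measured value. The pattern takes Atp5s and Atp5sl, which RefSeq names Dmac2l and Dmac2 and which are not subunits of the synthase. Counts and medians by complex below follow the symbol, so they keep both genes in complex V. It leaves out other genes for subunits and carriers, among them Cox4i1, Cox7a2l, Cyc1, Ndufab1 and Usmg5. None of the 13 subunits encoded in mitochondrial DNA was in the table, so the nuclear part of each complex is all that is described.

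RNA was sequenced in 12 libraries labelled as cortical neurons of C57BL/6 mice sorted by flow cytometry, with 3 libraries a group. The 4 groups were stroke in adult animals with GDF10 siRNA (siRNA-labelled stroke, numbered 1 to 3), stroke in adult animals without it (4 to 6), P4 control animals (4 to 6) and adult wild-type control animals (1 to 3). The stroke was photothrombotic: rose bengal, a dye that light activates, was given, and 15 min of cold light on the brain left a focal lesion of 2 mm. The series asks what GDF10, a growth factor related to TGF-beta, does for axonal sprouting and recovery. The growth text calls the mice adult for all 12 libraries, the P4 ones included. The labels do not spell out P4, name no sham-operated or control-siRNA group, and give neither the time after stroke nor whether the 3 libraries of a group came from separate animals. P-values therefore measure the spread between these libraries only, which may be technical. What the library numbers stand for is not given either. Stroke against adult control, P4 against adult control and siRNA-labelled stroke against stroke each set numbers 1 to 3 against 4 to 6. If the numbers mark sets of libraries, group and set cannot be told apart in those comparisons.

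Complexes I to IV pass electrons from NADH and succinate to oxygen and, except for complex II, pump protons across the inner mitochondrial membrane. ATP synthase lets the protons flow back through a ring of c subunits, and the turning ring drives ATP synthesis in a catalytic head of alpha and beta subunits. Neurons meet most of their ATP demand this way, and dependence on it grows as the rodent cortex matures after birth. Many nuclear subunit genes carry binding sites for the transcription factors NRF-1, GABP (an ETS factor) and YY1 near their start sites.

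Motifs of those factors were looked for in the promoters of the members, and 4 promoters are printed. Atp5g1, Atp5g2 and Atp5g3 encode the same mature c subunit of ATP synthase from separate genes and had log2 fold changes of different sign in P4, where Atp5g3 alone of them passed the test, and Cox6a1 was the single member called between stroke and P4. The sequences are the 250 bases before 1 start site of each gene in the RefSeq promoter table (build GRCm38.p6), read 5′ to 3′ on the gene's strand. That site is the outermost annotated 5′ end of Atp5g2 and Cox6a1, but it lies 63 bases inside it for Atp5g1 and 1138 bases inside it for Atp5g3, whose window is therefore within the gene and is not the region before its outermost start. Of the 68 members with a window, 12 had none starting within 2 bases of the gene's outermost end. Capitals mark the NRF-1 motif (GCGCA followed by its reverse complement) and the ETS motif CCGGAAG, searched on both strands.
Atp5g1 (c subunit, chr11:96075632-96075881, minus strand): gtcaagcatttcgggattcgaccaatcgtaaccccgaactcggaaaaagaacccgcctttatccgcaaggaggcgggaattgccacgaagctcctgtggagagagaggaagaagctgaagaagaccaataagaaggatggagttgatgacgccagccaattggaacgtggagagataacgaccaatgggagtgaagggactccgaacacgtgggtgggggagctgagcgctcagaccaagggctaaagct
Atp5g2 (c subunit, chr15:102671048-102671297, minus strand): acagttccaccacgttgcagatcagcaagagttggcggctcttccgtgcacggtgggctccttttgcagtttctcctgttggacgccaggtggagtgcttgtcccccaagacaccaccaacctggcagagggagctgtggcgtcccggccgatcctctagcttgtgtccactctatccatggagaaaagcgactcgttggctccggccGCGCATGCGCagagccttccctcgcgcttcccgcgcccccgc
Atp5g3 (c subunit, chr2:73911327-73911576, minus strand): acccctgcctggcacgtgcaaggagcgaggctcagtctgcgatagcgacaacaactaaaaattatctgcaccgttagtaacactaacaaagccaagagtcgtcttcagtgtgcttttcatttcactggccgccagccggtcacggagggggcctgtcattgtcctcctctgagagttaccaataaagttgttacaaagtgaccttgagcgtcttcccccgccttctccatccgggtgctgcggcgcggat
Cox6a1 (complex IV, chr5:115348959-115349208, minus strand): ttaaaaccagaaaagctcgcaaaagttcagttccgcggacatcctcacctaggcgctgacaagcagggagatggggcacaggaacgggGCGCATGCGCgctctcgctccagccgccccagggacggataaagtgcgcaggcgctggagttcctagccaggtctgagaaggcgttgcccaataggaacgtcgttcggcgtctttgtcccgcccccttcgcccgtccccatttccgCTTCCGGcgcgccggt

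Atp5g2 held an NRF-1 motif at position -42 from the start, and Cox6a1 held one at -162 and an ETS motif on the opposite strand at -16. The windows shown for Atp5g1 and Atp5g3 held none of the 4 motifs searched, which says nothing of their other start sites. Over windows from 250 bases before to 50 after the start, 68 members had a promoter in the table. The NRF-1 motif was found in 7.35% of them, against 1.93% of all tested genes with a promoter. The ETS motif was found in 23.5% of members, against 16% of tested genes, and the YY1 motif AAGATGGC in 16.2%, against 4.3%. The TATA motif TATAAA was found in 10.29% of members and 10.8% of tested genes. By symbol, the YY1 hits lay in 7 complex I and 4 complex V members, Atp5sl among the latter.

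Total counts ranged from 10517638 in adult control 3 to 48633350 in P4 4. Gdf10, the siRNA target, had 8, 7 and 1 counts in siRNA-labelled stroke, 0, 5 and 0 in stroke, 189, 241 and 33 in P4, and 15, 21 and 0 in adult control. At this depth its counts do not check the siRNA label. All 11 neuronal markers listed were detected in every group, at a summed level of 1601 to 2488 CPM (counts scaled to library size, with TMM factors) in siRNA-labelled stroke, 1436 to 2043 in stroke, 5125 to 7992 in P4 and 1774 to 5213 in adult control. The 11 oligodendrocyte markers summed to 57437 to 106491 CPM in siRNA-labelled stroke, 49880 to 66304 in stroke, 105.5 to 344.5 in P4 and 31067 to 110366 in adult control, so oligodendrocyte RNA was far above neuronal marker RNA in the adult groups, in libraries labelled as neurons. In bulk samples such as these, fewer cells of a type and less RNA per cell cannot be told apart. The libraries also fell into sets by base composition. The 5 libraries with 2.08 to 2.72% of counts on the ribosomal RNA gene Rn45s (siRNA-labelled 3, all of stroke and adult control 2) were those in which the members' deviation from their mean rose with transcript GC content (Spearman's rho 0.323 to 0.6 over 78 members, as a description). In the other 7 libraries, with 0.00984 to 0.427% on Rn45s, rho lay between -0.525 and 0.0384. Both the Rn45s split and the GC correction used below were chosen after seeing the data.

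The members took 0.22%, 0.215% and 0.434% of all counts in siRNA-labelled stroke, 0.348%, 0.393% and 0.428% in stroke, 0.513%, 0.508% and 0.391% in P4, and 0.329%, 0.374% and 0.184% in adult control. The shares of adult control 3 and of siRNA-labelled 1 and 2 were the lowest of the 12. Atp5b alone, the catalytic beta subunit of ATP synthase, held 23.8 to 49.9% of the members' counts. Between 76 and 80 members had at least 1 count in a library. The filter on low counts passed 78, and Cox8b and Cox8c failed it.

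Levels per length of transcript (mean CPM per kb over the 4 groups) put ATP synthase at the top. Atp5b had 659 CPM per kb (chromosome 10, 128083307 to 128090388, GRCm38), followed by its partners in the catalytic head and stalk, Atp5c1 (gamma, 127) and Atp5a1 (alpha, 119), and by the c subunit gene Atp5g3 (95.1). The highest member of complex III over all groups was Uqcrc2, a core subunit, with 75.3 CPM per kb, although in stroke Uqcrh (86) lay above it (64). Cox6a1, a nuclear subunit of cytochrome c oxidase, led complex IV with 62, although in P4 Cox5a (60.4), Cox7b (48.1) and Cox6c (43.5) lay above it (37.7). Sdha, the flavoprotein of succinate dehydrogenase, led complex II with 56.5. Ndufa4, named as a complex I subunit and since assigned to complex IV, led the Nduf genes with 52.1 over all groups, with 89.2 in P4. The median level per length was 16.4 CPM per kb in complex I, 23.7 in complex II, 26.2 in complex III, 23.9 in complex IV and 30.4 in complex V. By group, Atp5b had 433 CPM per kb in siRNA-labelled stroke, 736 in stroke, 986 in P4 and 479 in adult control. Atp5c1 and Atp5a1 lay close to each other in every group, at 106 and 89.4 CPM per kb in siRNA-labelled stroke, 119 and 113 in stroke, 194 and 193 in P4, and 89.7 and 82.2 in adult control. Their order was not tested.

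**Figure D1:**
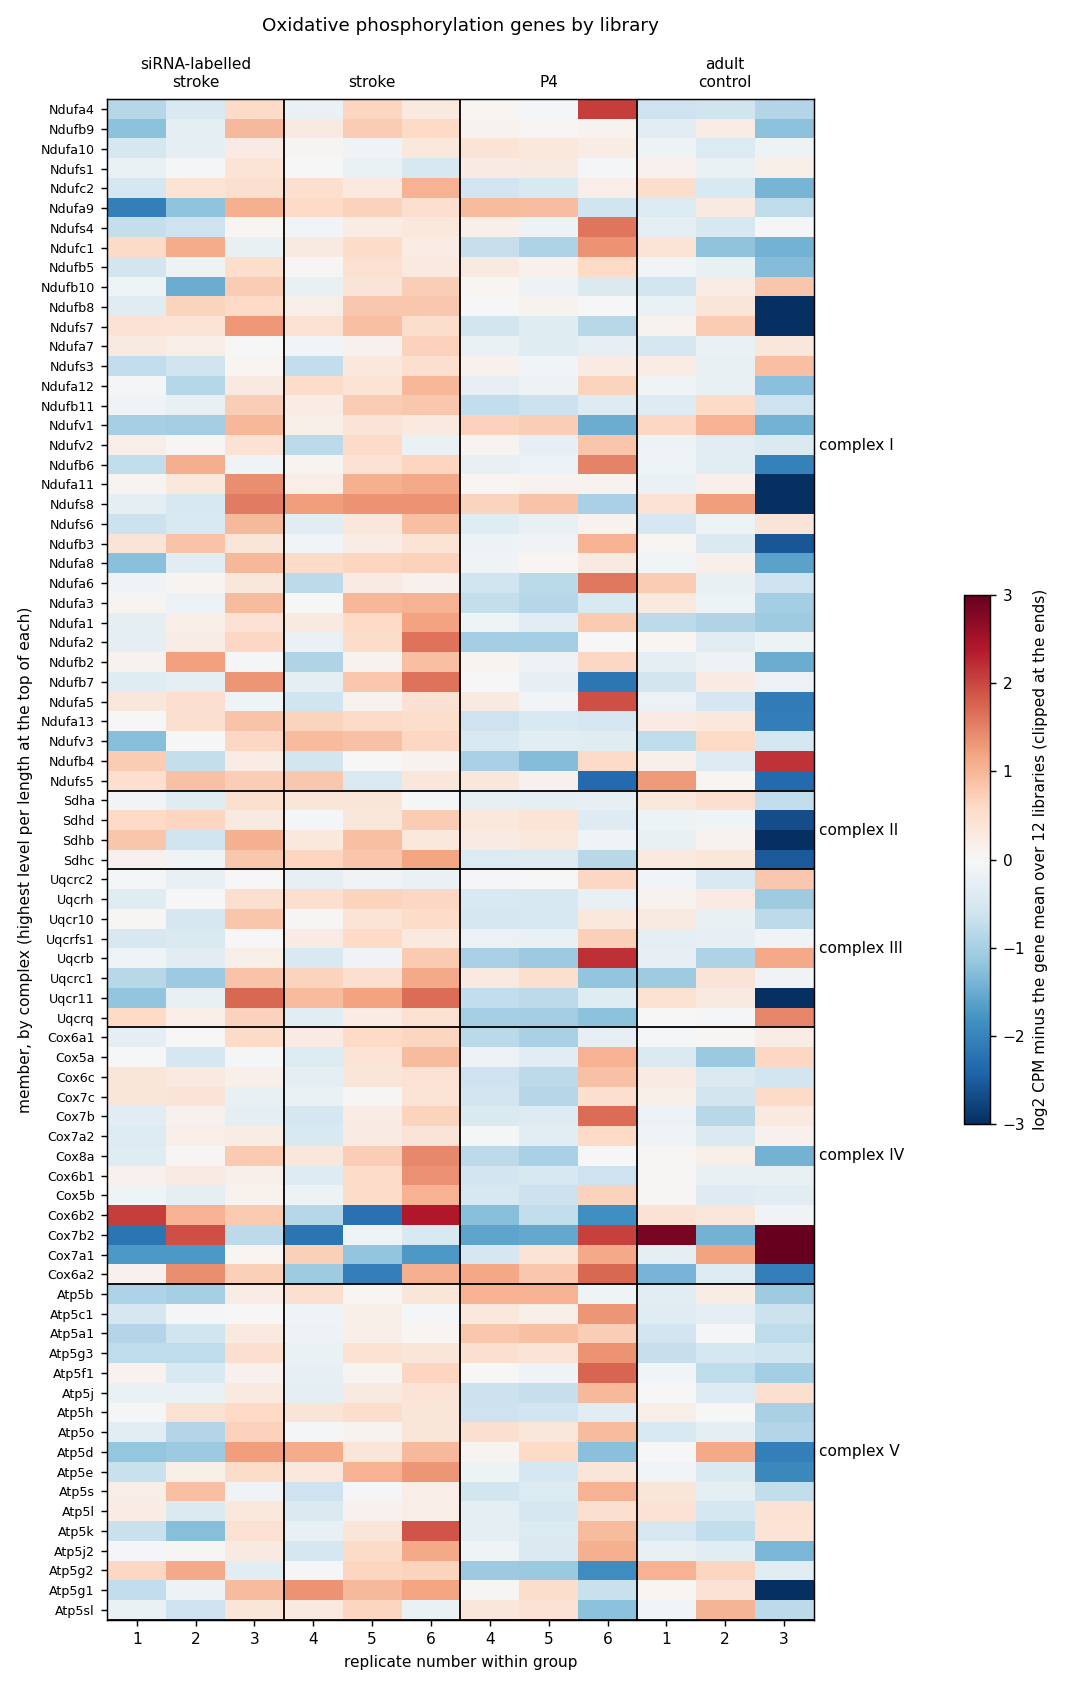
Heat map of the members that passed the filter, 1 left out (rows, by complex) in the 12 libraries (columns, by group and replicate number). Colour gives log2 CPM minus the gene's mean over all libraries, clipped at the ends of the scale. Adult control 3 holds the deepest blue cells (Ndufs8, Ndufa11, Atp5g1, Ndufs7 and Sdhb), and siRNA-labelled 3 is redder than siRNA-labelled 1 and 2.

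Library by library, the median deviation of the members from their own means (log2 CPM) was -0.202, -0.151 and 0.465 in siRNA-labelled stroke. It was -0.023, 0.417 and 0.581 in stroke, -0.161, -0.245 and 0.226 in P4, and -0.087, -0.202 and -0.745 in adult control. Within siRNA-labelled stroke the third library stood above the other two, and in adult control the third library stood below them. The median deviation of 74 cytosolic ribosomal protein genes in the same libraries was -0.29, 0.184 and 0.601 in siRNA-labelled stroke, -0.00515, 0.397 and 0.698 in stroke, 0.147, 0.00299 and 0.562 in P4, and -0.499, -0.259 and -1.02 in adult control. Adult control 3 was lowest and stroke 6 and siRNA-labelled 3 were highest in both sets. In adult control 3 the complex II genes had a median deviation of -2.58, against 0.132 for complex IV. In P4 6 the members of low GC content had a median of 0.809 and those of high GC content -0.244.

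**Figure D2:**
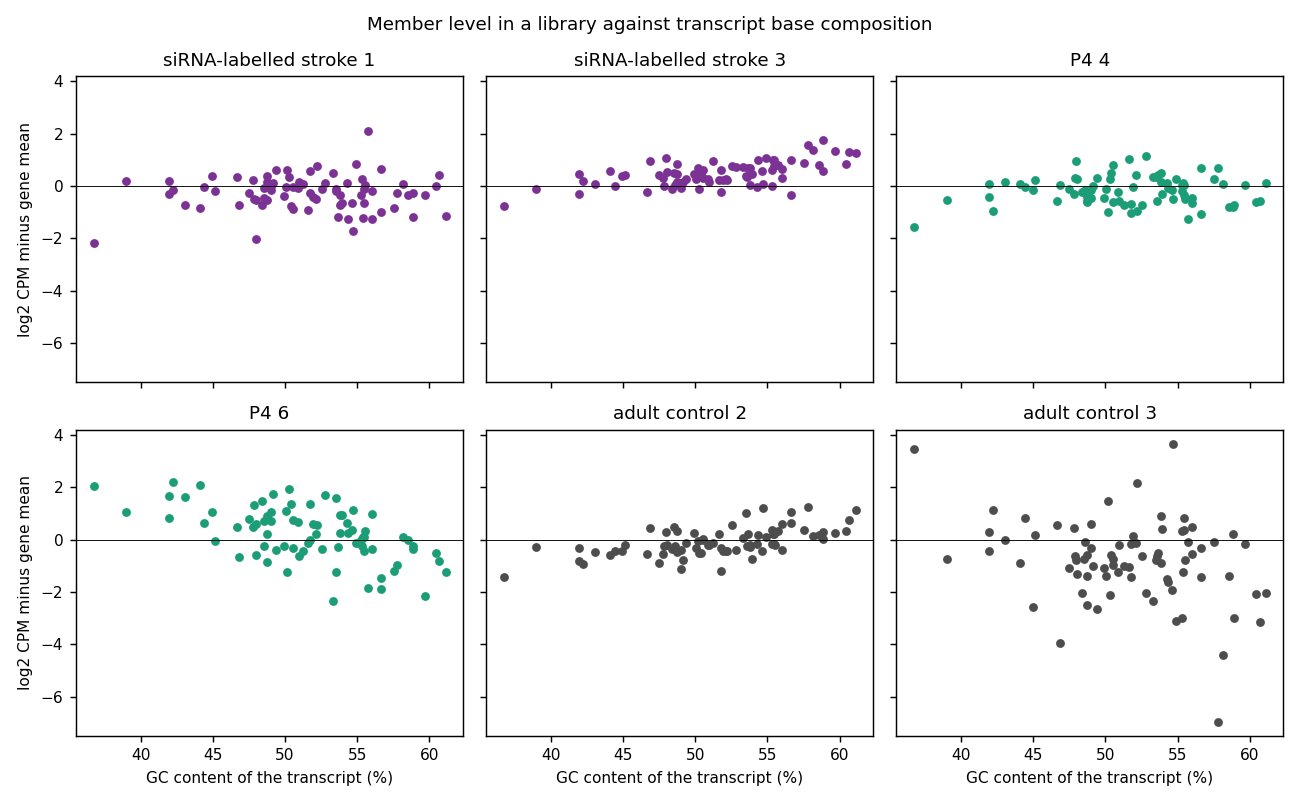
Deviation of each of the 78 tested members from its mean (log2 CPM) against the GC content of its transcript (percent), in 6 libraries. Points rise to the right in siRNA-labelled 3 and adult control 2 (rho 0.547 and 0.6), fall in P4 6 (rho -0.525) and scatter most widely in adult control 3.

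P4 was set against adult control to compare the 2 groups of control animals. Of the 17 members with Atp5 symbols 3 passed the test, all higher in P4: Atp5a1, Atp5c1 and Atp5g3, for the alpha, gamma and c subunits. The other 14 did not pass, and no member was called lower. These 3 of 78 members are 3.85%, against 16.8% of all 17909 genes called in this comparison (6.32% higher, 10.4% lower). The median log2 fold change was 0.22 over the members, with 46 of 78 above 0, against -0.16 over all genes. By complex it was 0.37 in complex I, 0.18 in complex II, 0.01 in complex III, -0.29 in complex IV and 0.42 in complex V. Of the 17 complex V members, 12 were above 0, and of the 13 tested in complex IV, 6 were. Both groups' libraries were apart, with P4 higher, in 10 members (12.8%, against 16.1% of all genes) and with P4 lower in 5 (6.41%, against 16.0%).

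Atp5a1 (chromosome 18, 77773768 to 77782869) had 474, 506 and 454 CPM in P4 and 181, 267 and 161 CPM in adult control. All P4 libraries lay above all adult control libraries, with means of 478 ± 26.2 and 203 ± 56.2 CPM (SD, n = 3 each). The log2 fold change was 1.23 (SE 0.33), with an adjusted p of 0.0194 in edgeR's quasi-likelihood test. Atp5g3 (chromosome 2, 73908447 to 73912464) had 85.35, 80.1 and 155 CPM in P4 and 37.55, 42.2 and 40.0 CPM in adult control. Its log2 fold change was 1.42 (SE 0.42, edgeR adjusted p = 0.0293), and the groups did not overlap. Atp5c1 (chromosome 2, 10056030 to 10080510) had 172, 158 and 350.1 CPM in P4 and 108, 116 and 89.4 CPM in adult control. Its log2 fold change was 1.12 (SE 0.34, edgeR adjusted p = 0.0347), the groups did not overlap, and P4 6 was the highest of the 12 libraries. Over 55.7% of the Atp5c1 transcript matched another annotated gene at 95% identity or more, so its reads may be shared. The share was 5.22% for Atp5a1, and no such match was found for Atp5g3.

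Each of these calls depended on single libraries. P4 4 and P4 5 were also more alike than any other pair of replicates (median chi-square per gene 5.628, against 19.03 to 82.22), though they differed by more than sampling noise. Without adult control 1 no member passed, and the log2 fold changes were 1.165 for Atp5a1, 1.385 for Atp5g3 and 1.146 for Atp5c1, close to those with all libraries. Without adult control 3 only Atp5g3 passed, and without P4 6 the values were 1.07 for Atp5g3 and 0.68 for Atp5c1, neither of which passed. Atp5a1 was also lost without P4 4 (1.24, adjusted p = 0.0562) and without P4 5 (1.198, adjusted p = 0.06255). Without adult control 2, Atp5g3 (adjusted p = 0.0551) and Atp5c1 (adjusted p = 0.0507) were lost. Without P4 6 the median over the members was -0.09, so the sign of that median rested on 1 library. Against only the 2 adult control libraries of low Rn45s share (1 and 3), the differences in mean log2 CPM were 1.48 for Atp5a1, 1.11 for Atp5c1 and 1.39 for Atp5g3. The median of these differences was 0.293 over the members and 0.0743 over all genes.

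Outside complex V, the smallest p of the Nduf genes belonged to Ndufa4, with 27.5, 25.45 and 110.3 CPM in P4 and 17.0, 17.5 and 14.3 CPM in adult control. Its log2 fold change of 1.74 (SE 0.58, edgeR adjusted p = 0.0536) did not pass. It passed without P4 4 (2.06, adjusted p = 0.0456) or P4 5 (2.08, adjusted p = 0.0377) and was 0.72 without P4 6. Uqcrq, a small subunit of complex III, had 3.24, 3.11 and 2.725 CPM in P4 and 6.503, 6.285 and 18.0 CPM in adult control. Every P4 library lay below every adult control library, at a log2 fold change of -1.755 (SE 0.62, edgeR adjusted p = 0.0697), or -1.07 without adult control 3. In complex II, Sdhd, a membrane anchor subunit, had 39.6, 42.3 and 24.4 CPM in P4 and 28.6, 29.3 and 5.02 CPM in adult control, groups that overlapped (log2 fold change 0.75, SE 0.53, edgeR adjusted p = 0.387). In complex IV, Cox6a2 had the greatest fold change at 3.07, but on 31, 22 and 14 counts in P4 against 1, 6 and 0 in adult control (edgeR adjusted p = 0.278). Atp5b had 2323, 2313 and 1034 CPM in P4 and 896, 1319 and 539.7 CPM in adult control, and the groups overlapped (log2 fold change 1.04, SE 0.42, edgeR adjusted p = 0.1105).

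The authors' deposited table lists 5 of 80 members at a false discovery rate under 0.05 in P4 against adult control, against 15.45% of all genes. All 5 were higher: the 3 above with Atp5f1, a subunit of the synthase's outer stalk, and Ndufa4. The authors' log2 fold changes were 1.25 for Atp5a1, 1.12 for Atp5c1, 1.38 for Atp5f1, 1.43 for Atp5g3 and 1.74 for Ndufa4. In the other 4 comparisons the authors' deposited table lists no member below that rate. Of all genes, 3.02% were below it in stroke against adult control and 16.59% in stroke against P4. The share was 0.839% in siRNA-labelled stroke against adult control and 0.159% in siRNA-labelled stroke against stroke. Cell markers moved with this comparison: 4 of 11 neuronal markers were higher and 0 lower in P4. Lower in P4 were 10 of 11 oligodendrocyte, 4 of 5 oligodendrocyte precursor, 8 of 9 microglial and 4 of 7 astrocyte markers. Their part in the 3 calls was not tested.

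**Figure D3:**
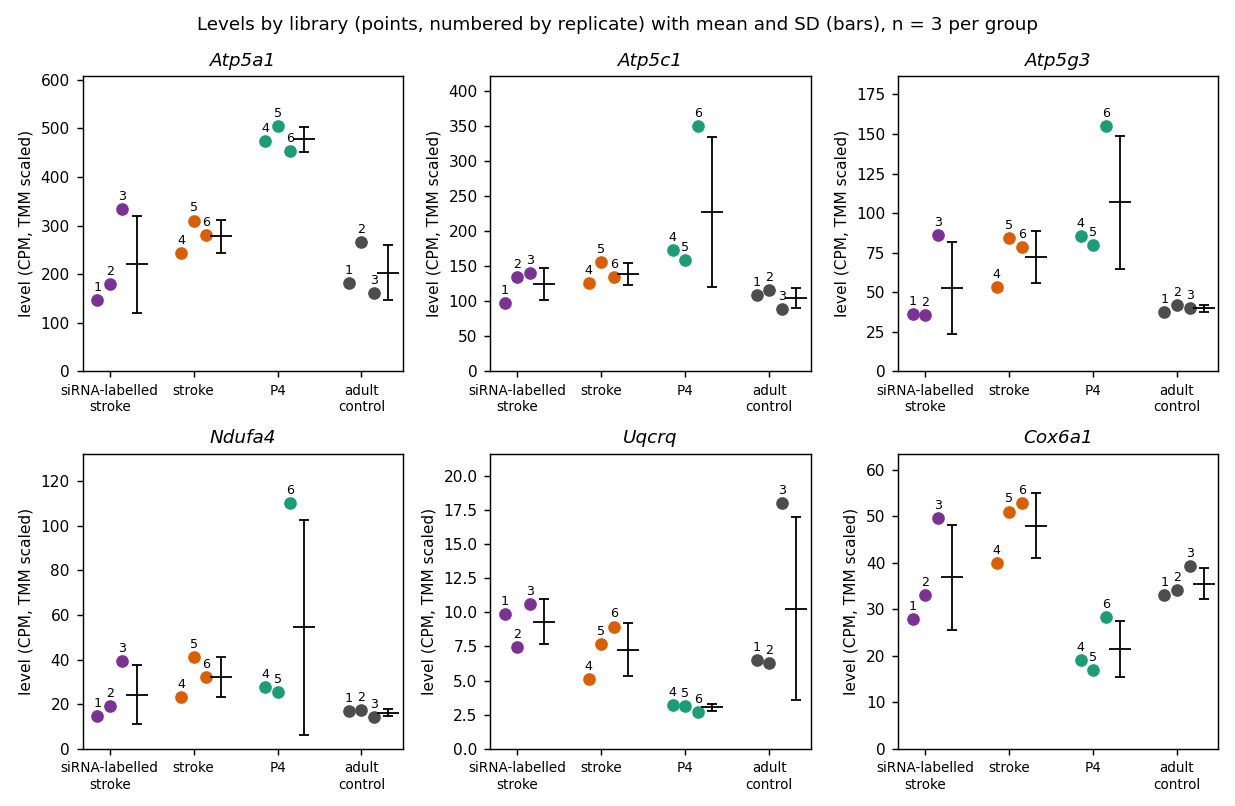
Level of 6 members (CPM, TMM scaled) in each library, with points numbered by replicate and bars for mean and SD (n = 3 per group). Atp5a1 is above all adult control libraries in each P4 library (454 to 506 CPM), Uqcrq is below them in each (2.725 to 3.24 CPM), and P4 6 stands apart in Atp5c1, Atp5g3 and Ndufa4.

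Stroke against P4 sets injured adult animals beside the P4 controls. Cox6a1 was the single member called, higher in stroke, and it is 1.28% of the 78 members tested, against 18.8% of all genes (10.8% higher, 7.94% lower). Cox6a1 (chromosome 5, 115345652 to 115348958) had 40.0, 51.0 and 52.8 CPM in stroke and 19.15, 17.0 and 28.3 CPM in P4. The groups did not overlap, and the log2 fold change was 1.16 (SE 0.38, edgeR adjusted p = 0.0459). It was 0.53 (adjusted p = 0.565) with the GC correction. The call was also lost without stroke 4 (1.11), stroke 5 (1.11), stroke 6 (1.08), P4 4 (1.085) or P4 5 (1.02), each time on a fold change close to the full one, and it was kept without P4 6 (1.40). In siRNA-labelled stroke its level was 27.8, 33.1 and 49.5 CPM, and in adult control 32.95, 34.2 and 39.2 CPM, so P4 was the lowest group.

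Over all members the median log2 fold change of stroke against P4 was 0.28, with 53 of 78 above 0, against -0.04 over all genes. Stroke libraries lay above all P4 libraries in 23 members (29.5%, against 22.6% of all genes) and below them in 3 (3.85%, against 21.7%). The 3 lower ones were Atp5a1, Atp5c1 and Uqcrc2. Atp5a1 had 243, 310.5 and 281 CPM in stroke and 474, 506 and 454 CPM in P4 (log2 fold change -0.78, SE 0.33, edgeR adjusted p = 0.126). Uqcr11, a small complex III subunit, had 6.28, 7.495 and 10.48 CPM in stroke and 1.89, 1.82 and 2.47 CPM in P4 (log2 fold change 1.97, SE 0.96, edgeR adjusted p = 0.185). Here 6 of 11 neuronal and 1 of 4 mural cell markers were lower in stroke. Higher were 10 of 11 oligodendrocyte, 4 of 5 oligodendrocyte precursor, 9 of 9 microglial and 1 of 7 astrocyte markers. The part of these markers in the result was not tested.

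**Figure D4:**
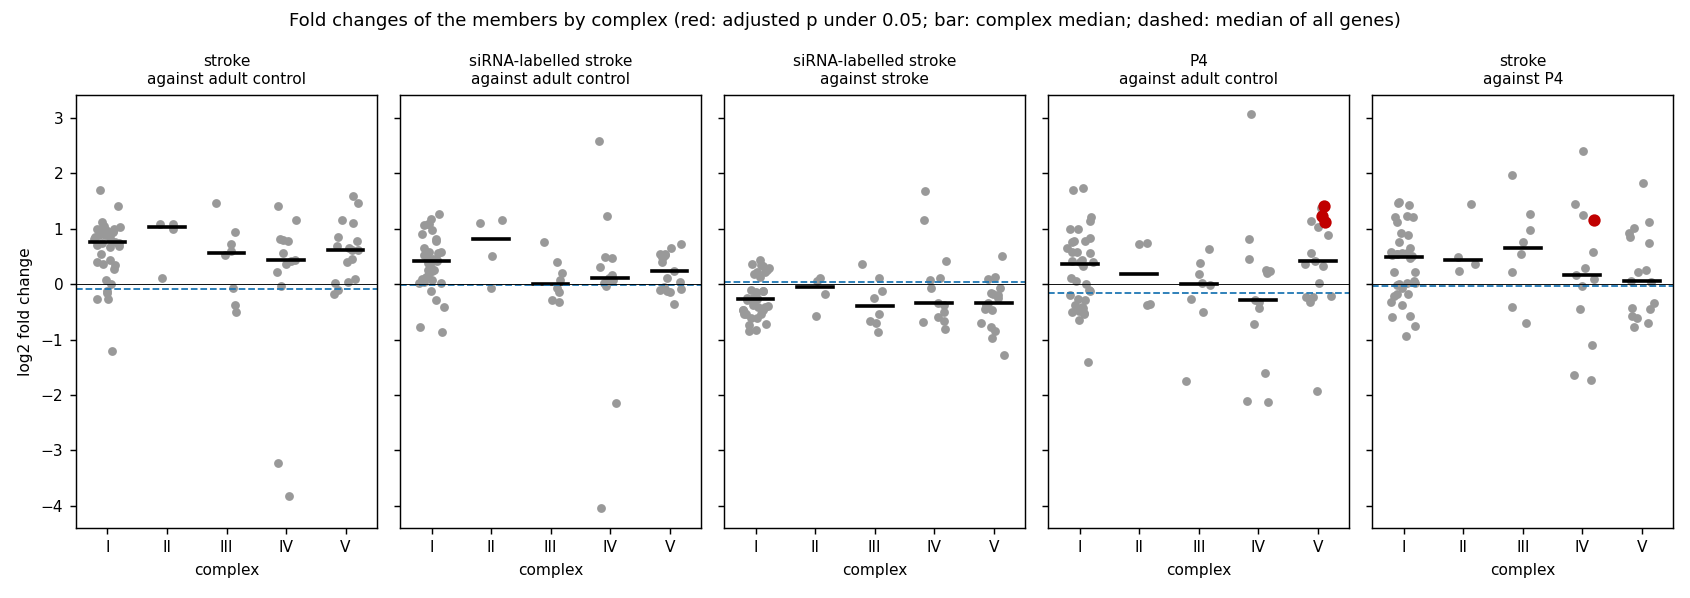
Log2 fold change of each tested member by complex in 5 comparisons. Red points have an adjusted p under 0.05 in edgeR (3 in complex V for P4 against adult control and 1 in complex IV for stroke against P4), black bars are complex medians and the dashed line is the median of all 17909 genes.

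Stroke was compared with adult control to ask what injury did to these genes. No member was called by edgeR, against 0.704% of all genes, 2 had an unadjusted p under 0.05 (15.9% of all genes did) and DESeq2 also called 0. The members nevertheless lay mostly on the higher side: 65 of 78 were above 0, and the median log2 fold change was 0.69, against -0.08 over all genes. It was 0.76 in complex I, 1.04 in complex II, 0.57 in complex III, 0.44 in complex IV and 0.62 in complex V. Stroke libraries lay above all adult control libraries in 27 members (34.6%, against 11.0% of all genes) and below all of them in 0 (against 9.00%). No p is given for the list as a whole, because its members share the libraries.

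The smallest p belonged to Ndufa1, an accessory subunit that complex I needs for assembly. Ndufa1 had 5.07, 6.34 and 9.77 CPM in stroke and 2.38, 2.19 and 1.94 CPM in adult control, with no overlap (log2 fold change 1.70, SE 0.70, edgeR adjusted p = 0.257). Atp5e, the epsilon subunit of the synthase's central stalk, had 8.94, 15.0 and 18.2 CPM in stroke and 6.78, 5.37 and 1.825 CPM in adult control. It too did not overlap and did not pass (log2 fold change 1.58, SE 0.65, edgeR adjusted p = 0.258). Cox8a, the general form of cytochrome c oxidase subunit 8, had 19.2, 25.4 and 41.5 CPM in stroke and 15.6, 17.2 and 5.70 CPM in adult control (log2 fold change 1.16, SE 0.56, edgeR adjusted p = 0.326). Sdhb, the iron-sulphur subunit of complex II, had 21.5, 32.6 and 21.6 CPM in stroke and 14.8, 18.6 and 1.94 CPM in adult control (log2 fold change 1.09, SE 0.66, edgeR adjusted p = 0.435). Uqcr11 had 6.28, 7.495 and 10.48 CPM in stroke and 4.44, 3.90 and 0.342 CPM in adult control (log2 fold change 1.46, SE 0.95, edgeR adjusted p = 0.467). In Atp5e, Cox8a, Sdhb and Uqcr11 the lowest library was adult control 3.

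On the other side, Ndufb4, an accessory subunit of complex I, had 2.97, 4.48 and 4.72 CPM in stroke and 4.88, 3.28 and 19.96 CPM in adult control (log2 fold change -1.20, SE 0.83, edgeR adjusted p = 0.499). Without adult control 3 that value was -0.003. Cox7b2 and Cox7a1 had the lowest fold changes of stroke against adult control, on few counts. Cox7b2 had 0, 7 and 3 counts in stroke and 56, 2 and 30 in adult control, and Cox7a1 had 9, 1 and 0 in stroke and 3, 19 and 25 in adult control. Over the members, leaving out 1 library at a time gave medians from 0.46 (without stroke 6) to 0.79 (without adult control 2), with 0.52 without adult control 3 and 0.47 with the GC correction. Against adult control 2 alone, the 1 control library with the high Rn45s share of the stroke libraries, the median difference was 0.476, with 68 of 78 above 0. Over all genes that median difference was -0.0343. The cytosolic ribosomal protein genes had a median of 0.90 in this comparison, with 72 of 74 above 0 and 0 called, so the members were not alone in lying on the higher side. In stroke, 4 of 7 astrocyte markers were lower and 1 of 11 oligodendrocyte markers was higher, and their part in the result was not tested.

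siRNA-labelled stroke against adult control showed no member called by edgeR (0.117% of all genes were), 0 had an unadjusted p under 0.05 (8.36% of all genes did) and DESeq2 called 0. The median log2 fold change was 0.28, with 59 of 78 above 0, against -0.02 over all genes. It was -0.06 without siRNA-labelled 3. Within the libraries of low Rn45s share (siRNA-labelled 1 and 2 against adult control 1 and 3) the members' median difference was 0.0558, below the 0.142 of all genes. Between siRNA-labelled 3 and adult control 2 the members' median difference was 0.577, against 0 over all genes. The siRNA-labelled libraries lay above all adult control libraries in 10 members (12.8%, against 6.35% of all genes) and below them in 0 (against 4.47%). Among the cell markers, 1 of 7 astrocyte markers was lower in siRNA-labelled stroke. The 9 microglial markers summed to 1100 to 2354 CPM in siRNA-labelled stroke and 591.9 to 739 CPM in adult control, with none called, and the part of these markers was not tested.

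Sdhd had the smallest p, with 48.4, 49.6 and 38.4 CPM in siRNA-labelled stroke and 28.6, 29.3 and 5.02 CPM in adult control. The groups did not overlap (log2 fold change 1.11, SE 0.54, edgeR adjusted p = 0.606). Ndufb3, an accessory subunit of complex I, had 11.9, 16.7 and 11.75 CPM in siRNA-labelled stroke and 9.52, 6.81 and 1.48 CPM in adult control (log2 fold change 1.17, SE 0.65, edgeR adjusted p = 0.675). Sdhb had 31.1, 11.5 and 36.5 CPM in siRNA-labelled stroke and 14.8, 18.6 and 1.94 CPM in adult control (log2 fold change 1.15, SE 0.66, edgeR adjusted p = 0.685). On the lower side, Ndufs3, a core subunit of complex I, had 10.27, 11.3 and 17.8 CPM in siRNA-labelled stroke and 20.1, 14.7 and 32.4 CPM in adult control (log2 fold change -0.77, SE 0.49, edgeR adjusted p = 0.737). Cox7a1 and Cox7b2 were lower too, on few counts, and did not pass. Cox7a1 had 0, 0 and 6 counts in siRNA-labelled stroke and 3, 19 and 25 in adult control. Cox7b2 had 0, 20 and 4 counts in siRNA-labelled stroke and 56, 2 and 30 in adult control. In Sdhd, Ndufb3 and Sdhb the low library was again adult control 3, and in Ndufs3 it was the high one.

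siRNA-labelled stroke against stroke compares the groups that differ by the GDF10 siRNA label, and also by their library numbers. With no control-siRNA group and few Gdf10 counts in both groups, neither a difference nor its absence can be assigned to GDF10. No member was called by edgeR, against 0.00558% of all genes, 0 had an unadjusted p under 0.05 (7.37% of all genes did) and DESeq2 called 0. The median log2 fold change was -0.27, with 22 of 78 above 0, against 0.04 over all genes. It was -0.62 without siRNA-labelled 3, and the median difference of siRNA-labelled 3 from the 3 stroke libraries, all with a high Rn45s share, was 0.15. Over all genes that median difference was 0.00119. The direction of the members' median thus differed between the libraries of the siRNA-labelled group. The siRNA-labelled libraries lay below all stroke libraries in 5 members (6.41%, against 8.11% of all genes) and above them in 0 (against 7.77%). No cell marker was called, but the 9 microglial markers summed to 1100 to 2354 CPM in siRNA-labelled stroke and 276.3 to 831.7 CPM in stroke. The 5 markers of oligodendrocyte precursors summed to 1535 to 2429 CPM in siRNA-labelled stroke and 3020 to 4203 CPM in stroke. Neither sum overlapped between the groups, and their part in the result was not tested.

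Atp5b had 598, 571 and 1318 CPM in siRNA-labelled stroke and 1604, 1176 and 1448 CPM in stroke. Its log2 fold change was -0.77 (SE 0.42, edgeR adjusted p = 0.722) and -1.28 without siRNA-labelled 3, still short of the threshold (adjusted p = 0.346). Uqcrfs1, the Rieske iron-sulphur protein of complex III, had 27.8, 28.8 and 39.3 CPM in siRNA-labelled stroke and 46.0, 58.8 and 47.6 CPM in stroke. Those groups did not overlap (log2 fold change -0.67, SE 0.37, edgeR adjusted p = 0.725). Atp5k, the e subunit, had 2.72, 1.74 and 6.01 CPM in siRNA-labelled stroke and 3.73, 5.64 and 16.2 CPM in stroke (log2 fold change -1.28, SE 0.81, edgeR adjusted p = 0.761). On the higher side, Ndufs1, the largest subunit of complex I, had 81.7, 90.6 and 125 CPM in siRNA-labelled stroke and 92.9, 82.1 and 67.9 CPM in stroke (log2 fold change 0.29, SE 0.30, edgeR adjusted p = 0.8515). Atp5s had 23.0, 37.5 and 18.5 CPM in siRNA-labelled stroke and 12.9, 19.7 and 23.2 CPM in stroke (log2 fold change 0.50, SE 0.53, edgeR adjusted p = 0.856), and -0.07 with the GC correction. Cox7b2 had 0, 20 and 4 counts in siRNA-labelled stroke and 0, 7 and 3 in stroke, so its fold change rested on siRNA-labelled 2.

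Several subunits have tissue isoforms, and for complex IV the general form had the higher level, per length of transcript too, in every library. Cox6a1 ran at 27.8 to 49.5 CPM in siRNA-labelled stroke, 40.0 to 52.8 in stroke, 17.0 to 28.3 in P4 and 32.95 to 39.2 in adult control. The muscle form Cox6a2 had 4, 12 and 14 counts in siRNA-labelled stroke, 2, 0 and 10 in stroke, 31, 22 and 14 in P4, and 1, 6 and 0 in adult control. P4 and siRNA-labelled stroke each lay above all adult control libraries in Cox6a2. Cox6b1 ran at 8.81 to 35.5 CPM over the 12 libraries. The testis form Cox6b2 had 63, 32 and 54 counts in siRNA-labelled stroke, 13, 4 and 90 in stroke, 17, 25 and 3 in P4, and 30, 45 and 7 in adult control. Stroke 6 held most of the stroke counts of Cox6b2, and in CPM siRNA-labelled stroke lay above and P4 below all adult control libraries.

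Cox7a2 ran at 16.05 to 33.6 CPM over the 12 libraries, and the muscle form Cox7a1 had 0, 0 and 6 counts in siRNA-labelled stroke and 5, 12 and 7 in P4. Cox7b ran at 17.4 to 98.0 CPM, highest in P4 6, and Cox7b2, known from testis, had 2, 2 and 20 counts in P4, again highest in P4 6. Cox8a ran at 5.70 to 41.5 CPM. Cox8b, a form of muscle, had at most 13 counts in a library, and Cox8c, known from testis, had 14 and 7 counts in adult control 1 and 3 and 0 in the other 10 libraries. Cox6a2, Cox6b2, Cox7a1 and Cox7b2 passed the test in none of the 5 comparisons, and Cox8b and Cox8c were not tested.

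The 3 c subunit genes had different patterns over the groups. Atp5g3 had 36.1, 35.7 and 86.1 CPM in siRNA-labelled stroke, 53.5, 84.3 and 78.35 in stroke, 85.35, 80.1 and 155 in P4, and 37.55, 42.2 and 40.0 in adult control. Atp5g2 had 4.27, 6.14 and 2.17 CPM in siRNA-labelled stroke, 2.69, 4.32 and 4.40 in stroke, 1.25, 1.23 and 0.697 in P4, and 5.71, 4.30 and 2.17 in adult control. P4 was thus the highest group in Atp5g3 and the lowest in Atp5g2, whose log2 fold change of P4 against adult control was -1.93 (SE 0.82, edgeR adjusted p = 0.130). Atp5g1 had 6.99, 10.6 and 22.8 CPM in siRNA-labelled stroke, 29.7, 23.0 and 26.7 in stroke, 11.9, 17.0 and 7.29 in P4, and 12.25, 15.7 and 0.684 in adult control. Stroke was the highest group in Atp5g1, above all libraries of the other groups (log2 fold change against adult control 1.46, SE 0.79, edgeR adjusted p = 0.381). The Atp5g2 transcript matched other annotated genes over 88.2% of its length, so its reads may be shared.

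**Figure D5:**
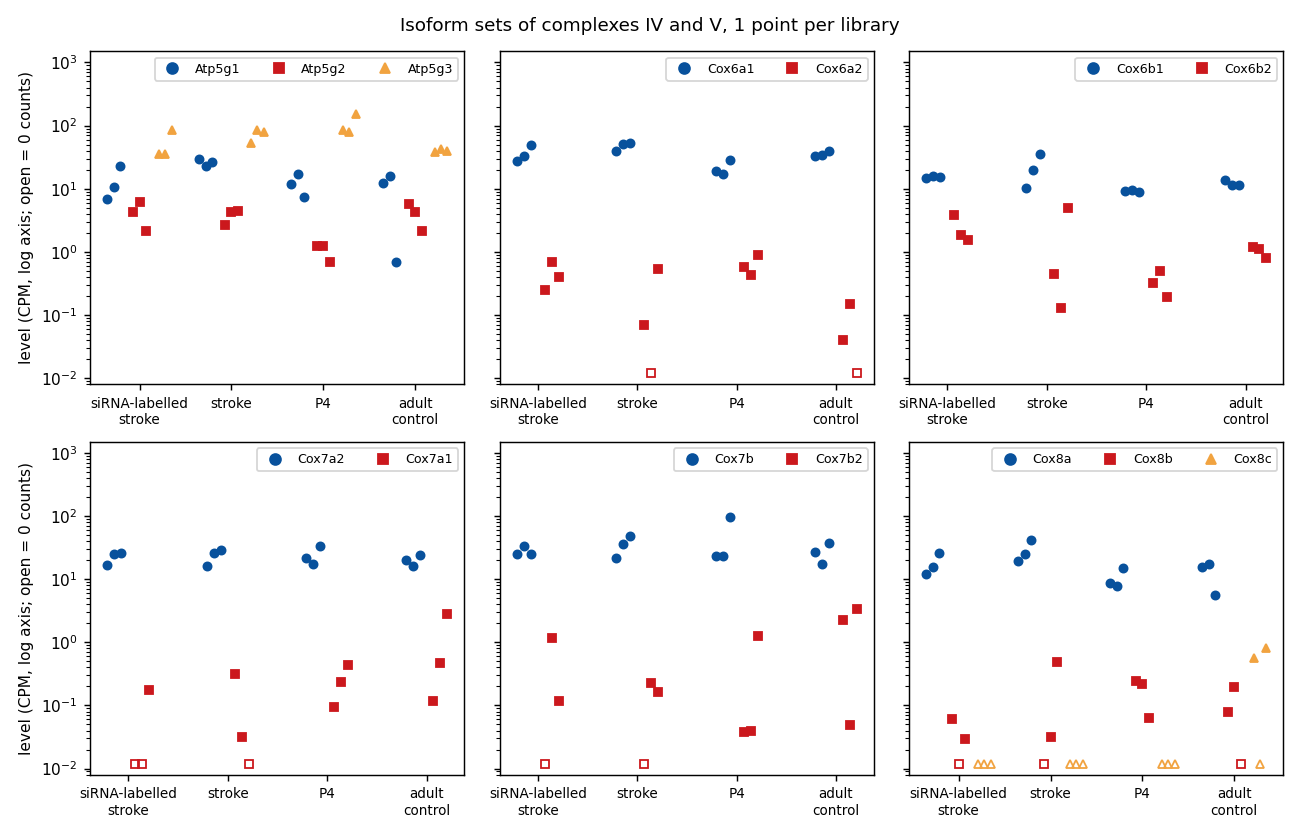
Levels (CPM, log axis) of the isoform sets in each library, with 1 point per library and open symbols at the bottom for 0 counts. Cox6a1, Cox6b1, Cox7a2, Cox7b and Cox8a lie above their muscle or testis forms in all 12 libraries, and Atp5g3 and Atp5g2 are at opposite ends in P4.

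Members shared some features that the pattern did not use. Their transcripts were short, with a median of 731.5 bases against 2776 over the tested genes, and slightly richer in GC, with a median of 51.75% against 49.8%. For 36 of 80 members another annotated gene matched at least 69 bases, the read length, at 95% identity or more, through copies or overlapping transcripts, and for 15 the match covered over 50% of the transcript. Ndufs5, an accessory subunit of complex I, had only 0 to 20 counts per library, and 60.8% of its transcript matched BC002163, which had 4 to 57 counts.

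The rest of the pathway was read from gene lists. In the 3 comparisons among the adult groups, 0 genes were called in any list. In P4 against adult control 16.8% of all genes were called, against 30% of glycolysis genes and 0 to 12.5% of each other tested list. In stroke against P4 18.8% of all genes were called, against 35% of glycolysis genes and 2.6 to 12.5% of each other tested list. The glycolysis list had only 20 tested genes. Cell markers moved in both of these comparisons, as given above, and their part in the list calls was not tested. In P4 against adult control 1 of 8 tested genes for subunits and carriers outside the pattern was called: Atpif1, the inhibitor of ATP synthase, had 33.6, 27.6 and 123 CPM in P4 and 9.60, 8.32 and 11.5 CPM in adult control (log2 fold change 2.65, SE 0.57, edgeR adjusted p = 0.00450). Over the settings tried it was at least 1.66, and it was called in each. Of 39 tested assembly factors, 1 was higher and 1 lower. Ndufaf4, which helps to build complex I, had 101, 71.4 and 271 CPM in P4 and 34.6, 26.6 and 29.4 CPM in adult control (log2 fold change 2.29, SE 0.45, edgeR adjusted p = 0.00259). It was called in each of the 6 fits that left out 1 library. The lower one, Uqcc2 (log2 fold change -4.875), rested on 157 CPM in adult control 3 and was -0.41 without it. It was also lost without P4 4 (-4.88), P4 5 (-4.79) or P4 6 (-4.90).

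Of 16 genes of the tricarboxylic acid cycle, which feeds electrons to the chain, 2 were higher and 0 lower in P4. Pdha1, of pyruvate dehydrogenase, had 193, 217 and 169.5 CPM in P4 and 110.5, 82.2 and 85.2 CPM in adult control (log2 fold change 1.06, SE 0.34, edgeR adjusted p = 0.0432). Dld, of the same complex, had a log2 fold change of 0.95 (SE 0.30, edgeR adjusted p = 0.0410). Pdha1 was called in 1 and Dld in 0 of the 6 fits that each left out 1 library. Of 20 glycolysis genes, which also hold lactate and glucose carriers, 2 were higher and 4 lower. Pfkp, the platelet form of phosphofructokinase, had a log2 fold change of 2.86 (SE 0.39, edgeR adjusted p = 0.000137), and Ldha, lactate dehydrogenase A, of 2.29 (SE 0.64, edgeR adjusted p = 0.0231), which was lost without P4 4 or P4 5. The glucose carrier Slc2a1 had 3.89, 4.66 and 1.77 CPM in P4 and 74.9, 117.5 and 46.8 CPM in adult control (log2 fold change -4.52, SE 0.48, edgeR adjusted p = 1.23e-05). The lactate carrier Slc16a1 had a log2 fold change of -4.37 (SE 0.66, edgeR adjusted p = 0.00028), and -2.845 in the setting nearest to 0. None of 14 biogenesis regulators and none of 77 mitochondrial ribosomal genes was called, and of 74 cytosolic ribosomal genes 8 were higher, led by Rps15a (1.89) and Rpl15 (2.06), both called in each of the 6 fits that left out 1 library. Of the other 6, 1 was called in 5 of those fits and the rest in 0 to 2.

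In stroke against P4 the same 8 subunits and carriers held Atpif1, lower in stroke (log2 fold change -2.31, SE 0.56, edgeR adjusted p = 0.00844), which was -1.31 and not called without P4 6. Assembly factors had 0 higher and 3 lower, among them Ndufaf4 (-2.44, SE 0.46, edgeR adjusted p = 0.00133) and Ttc19 (-1.21, SE 0.36, edgeR adjusted p = 0.0262), a complex III factor called in 1 of 6 fits that left out 1 library. Ppargc1a, the coactivator that drives mitochondrial biogenesis, had 19.1, 11.3 and 23.2 CPM in stroke and 44.7, 61.6 and 121 CPM in P4. It was the single biogenesis regulator called of 14 (log2 fold change -2.08, SE 0.47, edgeR adjusted p = 0.00563), and it was called in each of the 6 fits that left out 1 library. Its level was 33.9, 41.7 and 20.9 CPM in siRNA-labelled stroke and 61.7, 35.1 and 56.9 CPM in adult control. Of the tricarboxylic acid cycle genes, 0 were higher and 2 lower, Pdha1 (-1.34) and Sucla2 (-1.44), and Sucla2 was called in 1 of 6 such fits. Glycolysis genes had 5 higher, led by Slc2a1 (4.68, SE 0.48) and Slc16a1 (2.38, SE 0.60), and 2 lower, Pfkp (-3.51, SE 0.41) and Hk1 (-1.67, SE 0.53). Slc2a1, Slc16a1 and Pfkp were called in each of the 6 fits that left out 1 library, Aldoa in 2, and Hk1, Hk2 and Gapdh in 1. Of the mitochondrial ribosomal genes, Mrpl36 (1.67) and Mrps7 (1.82) were higher, called in 1 and 0 of the 6 such fits. Among the cytosolic ribosomal genes, Rpl15 (-1.905) and Rps15a (-1.20) were lower in stroke.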

How the data were processed

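The deposited table gave read counts per gene for 12 libraries, which were used as deposited. Reads were 69 bp and paired, per the labels' protocols, and the submitters' processing notes name CASAVA 1.8.2, edgeR and mm10. The authors' own log2 fold changes and their p-values, as false discovery rates, were in the deposited table too. Another 30 columns of normalized counts and log ratios per library were not used. The first P4 column is named P3 in the file.

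Counts were filtered with filterByExpr, scaled with TMM factors and tested with the quasi-likelihood test of edgeR 4.0.16 over all 12 libraries, with Benjamini-Hochberg adjustment over 17909 genes. The model was tested on simulated data. DESeq2 1.42.0 was an alternative. Levels are CPM, per kb of the GENCODE M21 transcript where compared between genes. Named members were those called (where none was, the 3 smallest p in each direction), those with the highest level or greatest change of a complex, and fixed isoform sets; others (Atp5b in P4, Atp5a1 and Uqcr11 against P4, Atp5f1, Ndufs5) were named after their values were seen. The members and lists were chosen with earlier results of these data known. Replicates differed by more than sampling noise, P4 4 and 5 the least, and were kept separate. Total counts of 10517638 to 48633350 limit precision for members of few counts. Single results for 2 genes, a cytosolic ribosomal gene and a member, are not reported here.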

Additional observations from a re-analysis of the deposited data

How the results depend on the processing

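In P4 against adult control 3 members were called. There were 6 (5 higher, 1 lower) with GC offsets, 10 (8 higher, 2 lower) with DESeq2, 1 in a fit of only those 2 groups, and 0 to 4 when 1 library was left out. In stroke against P4 1 was called. There were 0 with DESeq2 size factors, upper quartile scaling, no filter or GC offsets, 5 (4 higher, 1 lower) with DESeq2, 10 (9 higher, 1 lower) in a fit of only those 2 groups, and 0 to 1 when 1 library was left out. The replicate number was tried as a block in 2 comparisons, each in a fit of only the 2 groups compared. In stroke against P4 4 were called with it (Cox6a1, Cox8a, Sdhc and Uqcr11), against the 10 of the same fit without it. In siRNA-labelled stroke against adult control 0 were called. Same-numbered libraries correlated at 0.16, 0.0136 and 0.153 in stroke and P4 and at 0.0642, -0.191 and -0.336 in siRNA-labelled stroke and adult control. Differently numbered libraries correlated at -0.175 to 0.151 in stroke and P4 and at -0.317 to 0.481 in siRNA-labelled stroke and adult control. With 3 libraries a group, these values cannot settle whether the numbers pair the libraries, and the main fit did not pair them. The count of 0 in the other 3 comparisons was the same in every setting. For the alternative settings these are counts of members alone, without the share of all genes called in the same fit. They therefore do not show whether members were called more or less often than other genes there. The median over the members turned to -0.09 in P4 against adult control without P4 6 and to -0.06 in siRNA-labelled stroke against adult control without siRNA-labelled 3. Of the single members, Atp5s in siRNA-labelled stroke against stroke was -0.0652 with GC offsets, and Cox7b2 in the same comparison ran between -0.98 and 2.37 when 1 library was left out, the lowest without siRNA-labelled 2. Upper quartile scaling moved the median of all genes to -0.22 in stroke against adult control, -0.20 in stroke against P4 and 0.17 in siRNA-labelled stroke against stroke. The causes were not tested.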
